A study of Mus musculus with 4 samples.

Results

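Insulin and the insulin-like growth factors (IGFs) act through receptor kinases on the cell surface, and 10 genes of this system were followed here in mouse cells leaving the embryonic stem cell state. The genes were Irs1, Irs2 and Irs4 (insulin receptor substrates), Insr and Igf1r (receptors), Igf1 (a ligand), and Igfbp2, Igfbp3, Igfbp4 and Igfbp5 (IGF-binding proteins). All 10 were among the 18193 genes measured, and every probe set that the platform annotation gave to 1 of these symbols was used, 27 of the 34945 probe sets with a single symbol. A probe set is the group of short probes that reports 1 transcript on an Affymetrix array. Where a gene had several, the gene's value was that of the probe set with the highest mean over the 4 arrays. The genes were selected on the log2 difference between day 3 and day 0 of Irs4, whose probe sets disagreed, and as its pathway partners with that same comparison known, so their differences are given as a description and without a test.

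Total RNA came from 2 samples of epiblast-like tissue at day 3 of SFEBq, a serum-free floating culture in which dissociated stem cells quickly form aggregates, and from 2 day 0 samples of mouse embryonic stem cells. All 4 samples were labelled as derived from mouse embryonic stem cells and carried no stated treatment besides the culture, and no genotype or strain is given in the sources used here. Culture, medium and cell state cannot be told apart in this design. Nothing in the labels says that the duplicates came from different cultures, so error estimates and p-values cover the spread of these samples alone, possibly a technical one.

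When insulin or an IGF binds, the receptor phosphorylates itself and then docking proteins of the substrate family. The phosphorylated docking proteins recruit phosphoinositide 3-kinase (PI3K), which leads to activation of the kinase AKT and to export of FoxO transcription factors from the nucleus. IGF-binding proteins hold the ligands in the medium and can limit or prolong their action. In pluripotent cells this route is known for its part in survival and growth.

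In the brightest probe set of each gene, the substrates and the receptors were higher at day 3. On the log2 scale, Irs4 (6.28), Irs1 (3.13), Insr (2.13), Igf1r (1.95) and Irs2 (1.20) were higher at day 3 by 1 or more, in the probe sets kept. The ligand gene Igf1 and the binding protein genes lay between -0.24 and 0.51, although a dimmer probe set of Igfbp5 gave 2.89. The median difference of the 10 genes was 0.86, beside 0.01 over all genes measured. The fit across all genes (limma, Benjamini-Hochberg adjusted p under 0.05) called 6 of the 10 genes higher and 0 lower, where 20.9% of all genes were called higher, 21.4% lower and 42.3% either way. Of all genes, 5.93% differed upward by 1 or more, and in 69.0% both arrays of a day lay above both arrays of the other day, beside 5 and 10 of the 10 members. Because this same difference led to the choice of genes, nothing is read from those counts. In bulk RNA, fewer cells of a type and less RNA per cell cannot be told apart.

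**Figure D1:**
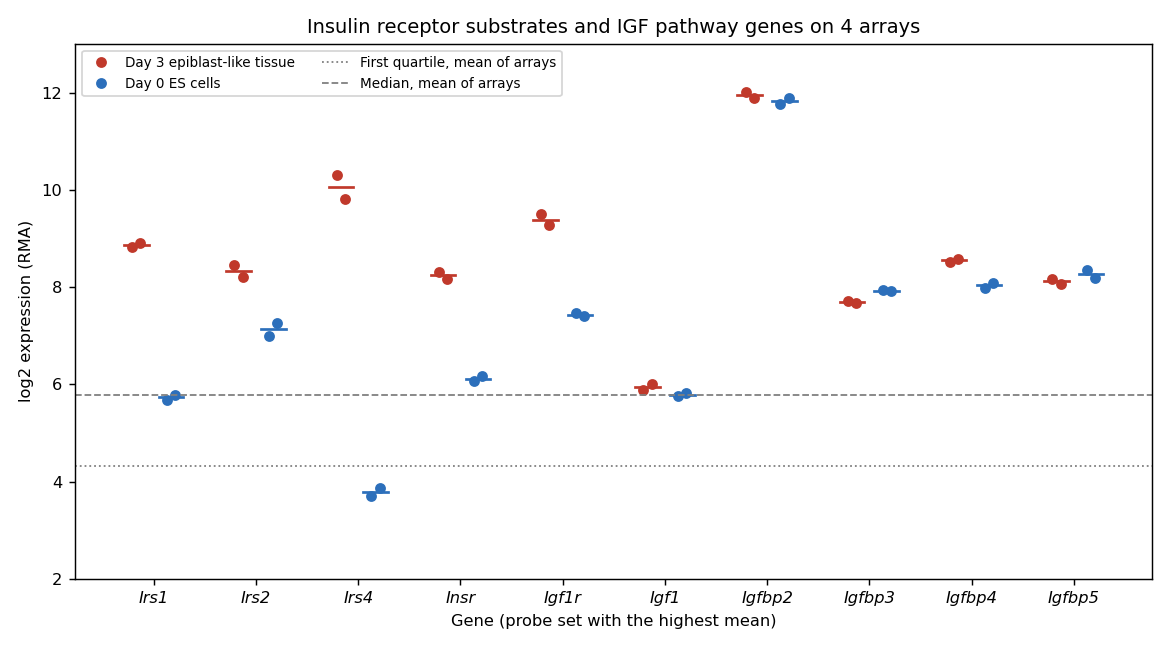
Log2 expression of the 10 genes on each of 4 arrays, with day 3 epiblast-like tissue in red left of day 0 embryonic stem cells in blue; short bars are the means of 2 arrays, and grey lines are the first quartile and the median of all probe sets. The substrate and receptor genes stand apart between the days, and Irs4 at day 0 is the only kept probe set below the first quartile.

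Marker genes were set beside the labels with the same fit. The marker lists were written with earlier results of these arrays known, so their counts are no independent check of the labels. All 10 naive pluripotency markers were called lower at day 3 and all 8 markers of the formative or primed epiblast were called higher. Of 14 visceral endoderm markers, 13 were called higher and 0 lower, and their summed linear signal was 22720 and 25238 at day 3 and 2701 and 2485 at day 0, with none below the arrays' first quartile on all 4 arrays. Fibroblast markers, which would mark feeder cells, had sums of 732 and 733 at day 3 and 704 and 664 at day 0. Of these 10 markers, 3 were called higher (Thy1 at 1.82, Dcn at 0.96 and Col1a2 at 0.49). Another 2 were called lower (Tagln at -1.31 and Acta2 at -1.18), and Col3a1, Lum and Postn were below the first quartile on all arrays. Of the other lists, 2 of 6 neural plate, 2 of 6 trophectoderm and 2 of 4 mesendoderm markers were called higher and 1, 2 and 0 lower. In the trophectoderm list, Krt8 and Krt18 were higher and Cdx2 and Tfap2c lower. Over all genes, 20.9% were called higher and 21.4% lower. The part of visceral endoderm cells in the differences described here was not tested.

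Irs4 encodes a substrate of the insulin and IGF-1 receptors and lies on the X chromosome. Its kept probe set, 1441429_at, read 10.30 and 9.82 at day 3 and 3.70 and 3.87 at day 0. Both day 0 arrays were below the arrays' first quartile (4.30 to 4.33), where no detection call separates a level from background. The mean was 10.06 ± 0.34 at day 3 and 3.78 ± 0.12 at day 0 (SD, n = 2 each), a difference of 6.28 ± 0.15 (SE). No exact fold is given, because the day 0 level lies in that dim range. The other probe set of Irs4, 1422248_at, read 5.70 and 5.81 at day 3 and 5.36 and 5.73 at day 0. These days overlapped, at levels near or below the array medians (5.78 to 5.79), with a difference of 0.21. The average of both probe sets gave 3.24. The files do not tell which of the probe sets measures the transcript, and the size of the Irs4 difference rests on that choice.

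Irs1, the founding member of the substrate family, had a single probe set. It read 8.82 and 8.90 at day 3 and 5.69 and 5.78 at day 0. The days were apart by 3.13 ± 0.10 (SE), an 8.74-fold difference, while the arrays of a day differed by less than 0.1. The day 0 arrays lay just under the array medians and the day 3 arrays above the upper quartile (8.07 to 8.08). Irs2, the substrate best known for its role in liver and in insulin-producing cells, also had 1 probe set. Its values were 8.45 and 8.21 at day 3 and 6.99 and 7.27 at day 0. The difference of 1.20 ± 0.12 (SE) was 2.30-fold, and all 4 arrays were above the array medians. In their kept probe sets, all 3 substrate genes had day 3 arrays above both day 0 arrays. Over all genes, the days did not overlap in 69.0%, in either direction, and nothing is read from that count.

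Since the 3 substrate genes were all higher at day 3 in their kept probe sets, their promoters were compared. RefSeq promoter windows of build GRCm38.p6 were found for 9 of the 10 genes, Insr being the one not matched, and 250 bases upstream of each annotated start were searched on both strands. The motifs were picked after the sequences had been seen. They were the E-box CACGTG, the site of many basic helix-loop-helix factors, and TGTTTTG, the core of the insulin response element to which FoxO proteins bind. The stretches around the E-box are shown because Irs2 and Irs4 share the longest run of letters there. They are on the minus strand, written 5′ to 3′, with both motifs in capitals. The Irs1 stretch is chr1:82291510-82291589, that of Irs2 is chr8:11008930-11009008 and that of Irs4 is chrX:141725327-141725406.
Irs1: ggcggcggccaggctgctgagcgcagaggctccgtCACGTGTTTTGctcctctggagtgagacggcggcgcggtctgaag
Irs2: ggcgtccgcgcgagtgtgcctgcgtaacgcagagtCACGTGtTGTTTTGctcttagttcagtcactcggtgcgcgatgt
Irs4: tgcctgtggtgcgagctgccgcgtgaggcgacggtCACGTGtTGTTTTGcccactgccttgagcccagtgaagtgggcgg

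The run GTCACGTGTTGTTTTGC, 17 bases long, stood in the windows of Irs2 and Irs4 and in none of the other windows, of 32851 searched. In both, 1 base separated the motifs, and the E-box began 44 bases upstream of the start in Irs2 and 154 bases upstream in Irs4. In Irs1 the E-box began 115 bases upstream and overlapped the other motif by 2 bases. The run common to all 3 genes was GTCACGTGTT, found in 23 windows (0.07%). An E-box was present in 6.02% of all windows, TGTTTTG in 5.56% and both in 0.295%. Of the other members with a window, Igfbp2 had an E-box, and TGTTTTG was found in none of them. Both shared runs were defined as the longest ones common to the windows of those substrate genes, so their presence there was fixed beforehand. Nothing is read from their rarity. A match describes letters only, and no binding was measured.

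The receptor genes were higher at day 3 in their brightest probe sets. Insr encodes the insulin receptor. Its kept probe set, 1434446_at, read 8.31 and 8.17 at day 3 and 6.06 and 6.16 at day 0, a difference of 2.13 ± 0.10 (SE), or 4.38-fold. The days did not overlap. Both other Insr probe sets lay below the array medians on all arrays. For 1450225_at the values were 5.50 and 5.52 at day 3 and 5.55 and 5.44 at day 0, so that the days overlapped. For 1421380_at they were 4.74 and 4.64 at day 3 and 4.47 and 4.63 at day 0, a difference of 0.14. Averaged over its probe sets, the Insr difference was 0.76.

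Igf1r encodes the receptor for IGF-1, which also binds IGF-2, and had 5 probe sets. The kept one, 1428967_at, read 9.49 and 9.27 at day 3 and 7.46 and 7.41 at day 0, a difference of 1.95 ± 0.10 (SE), or 3.85-fold. The probe set 1452982_at read 9.07 and 8.79 at day 3 and 6.89 and 7.15 at day 0, and 1426565_at read 8.30 and 8.32 at day 3 and 6.95 and 6.86 at day 0. These 3 probe sets thus put the difference between 1.40 and 1.95, with no overlap of the days. The remaining 2 lay below the array medians on all arrays, with differences of 0.18 and 0.22. Of the receptor and substrate genes with several probe sets, Igf1r was the only one for which more than 1 probe set differed by 1 or more.

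Igf1, encoding the ligand IGF-1, was near or below the array medians in all 4 of its probe sets. The kept one, 1452014_a_at, read 5.88 and 5.998 at day 3 and 5.75 and 5.81 at day 0, a difference of 0.16 that was little larger than its standard error of 0.12. The other 3 were below the first quartile on every array, between 3.18 and 4.02, so a difference there could not be told from background.

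The kept probe sets of the binding protein genes differed by 0.51 or less between the days, the largest difference being that of Igfbp4. Igfbp2, whose product is a major IGF-binding protein of the early embryo, was bright on all arrays, with 12.02 and 11.89 at day 3 and 11.77 and 11.88 at day 0. Its difference of 0.13 ± 0.06 (SE) was close to the distance of 0.13 between the day 3 arrays. Igfbp3, encoding the main carrier of IGFs in blood, was the member with the lowest difference. It read 7.72 and 7.66 at day 3 and 7.95 and 7.91 at day 0, a difference of -0.24 ± 0.09 (SE). Its second probe set, 1458268_s_at, gave -0.21, so its probe sets were 0.02 apart.

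Igfbp4, encoding a binding protein that mostly restrains IGF action, had 6 probe sets and a kept difference of 0.51 ± 0.09 (SE). The kept probe set, 1437405_a_at, read 8.52 and 8.58 at day 3 and 7.99 and 8.09 at day 0. All 6 were above the array medians on every array, and their differences ran from 0.02 to 0.75, all upward at day 3. For 1421991_a_at, the lowest of them, the days overlapped. The mean over the probe sets was 0.33. None of the Igfbp4 probe sets was free of a suffix that marks probes matching several transcripts.

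The probe sets of Igfbp5 disagreed. The kept one, 1422313_a_at, read 8.18 and 8.06 at day 3 and 8.35 and 8.18 at day 0, a difference of -0.15 ± 0.09 (SE), and its nearest arrays of the 2 days were equal to 2 decimals. The other, 1452114_s_at, read 6.91 and 7.49 at day 3 and 4.02 and 4.60 at day 0, a difference of 2.89. Its first day 0 array was below the first quartile, and the arrays of each day were more than 0.5 apart. Unlike the flat probe sets of Insr and Igf1r, the flat one of Igfbp5 was bright. By the mean of both, the difference was 1.37 and upward, and the files do not tell which of them measures the transcript. Igfbp5 lies next to Igfbp2 on chromosome 1 in the RefSeq annotation, and Igfbp3 lies next to Igfbp1 on chromosome 11.

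**Figure D2:**
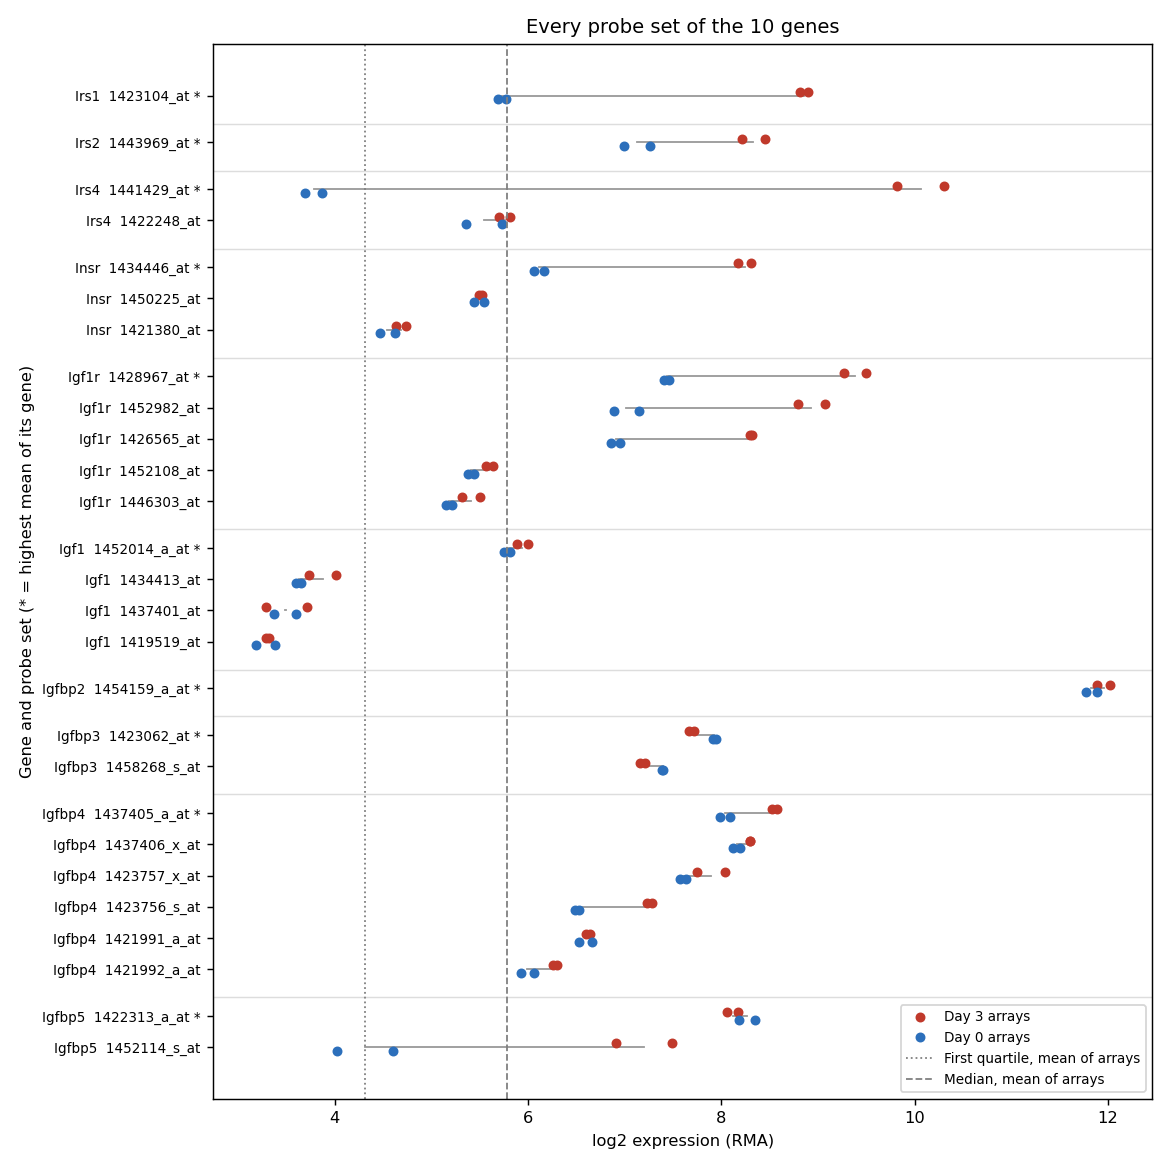
Log2 expression on each array for all 27 probe sets, with day 3 in red drawn above day 0 in blue and grey lines joining the means; an asterisk marks the probe set with the highest mean of its gene. Irs4, Insr, Igf1r and Igfbp5 each have probe sets with a wide and with a narrow gap between the days.

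Over the 27 probe sets, 8 differed by 1 or more, all upward at day 3, and 3 had a difference below 0, none under -0.24. The 7 probe sets below the array median on all 4 arrays had differences of 0.02 to 0.25. Low levels on both days limit the size of a difference, but they do not hold it to this range. Among other genes of the pathway, 1 probe set of Sh2b2 (0.85) and 1 of Tsc1 (-0.71) differed by more. Both were also below the array median on all 4 arrays. The spread between a gene's probe sets was set beside that of all 9010 genes with more than 1. Its median was 0.30 over those genes. For Irs4, which was chosen for this disagreement, it was 6.07 and rests on day 0 values below the first quartile. Igfbp5 had a spread of 3.03, Insr of 2.11 and Igf1r of 1.76. That of Igfbp4 was 0.72, of Igf1 0.23 and of Igfbp3 0.02.

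**Figure D3:**
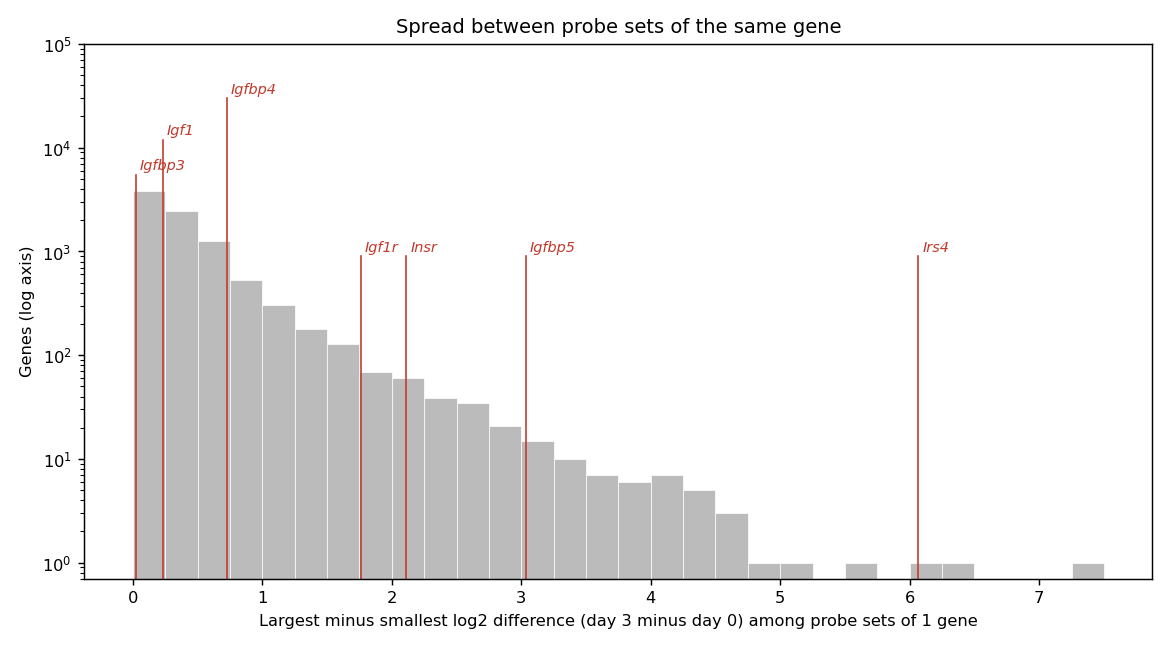
Number of genes (log axis) by the largest minus the smallest log2 difference among a gene's probe sets, in bins of 0.25, with red lines at the members that have several probe sets. Irs4, chosen for its disagreeing probe sets, stands at 6.07, and Igfbp3, Igf1 and Igfbp4 stand below 1.

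The genes most like Irs4 over the 4 arrays, by its kept probe set, were Clic6, Ctsh, Cubn, Slc39a8 and Apob. The other Irs4 probe set, with a difference of 0.21, was not ranked, so this list rests on the choice of probe set. Likeness was the Euclidean distance between log2 values centred on each gene's own mean, and it was 0.41 for Clic6, a chloride intracellular channel gene, 0.53 for Ctsh, a lysosomal protease gene, 0.66 for Cubn, an endocytic receptor gene, 0.73 for Slc39a8, a zinc transporter gene, and 0.78 for Apob, an apolipoprotein gene. Cubn and Apob were also in the visceral endoderm list. All 5 were higher at day 3, with differences of 5.85 to 6.79, and Cubn was above the array medians at day 0 as well (6.95 and 6.97). With 4 arrays in 2 groups this ranks little besides the size of the difference. For Igfbp3 the same measure ranked Ufd1, Tfb1m, Hspa2, Qrich1 and Plekhs1 first, at 0.01 to 0.02, but 12396 genes lay within 0.5 of it.

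Other genes of the pathway were taken from a list of 61, of which 54 were measured and 7 were not analysed here. The list was written with earlier results of these arrays known. The fit called 15 higher (27.8%, beside 20.9% of all genes) and 9 lower (16.7%, beside 21.4%), and 30 were not called. Their median difference was 0.03, beside 0.01 over all genes. Without day 3 replicate 1, fewer were called higher, and their share was no longer above that of all genes. By at least 2-fold, 2 rose and 1 fell. No test was made of the list as a whole.

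Of the ligands and receptors outside the 10, Igf2r and Igf2 were called higher, and neither call held under all alternatives. Igf2r encodes the receptor that removes IGF-2 from the cell surface, and it read 10.35 and 10.18 at day 3 and 9.63 and 9.93 at day 0, a difference of 0.48 ± 0.10 (SE), called with an adjusted p = 0.0025 by limma. It was 0.40 and not called without day 3 replicate 1 (adjusted p = 0.069). Igf2, the fetal growth ligand, read 8.42 and 8.38 at day 3 and 8.26 and 7.95 at day 0. It differed by 0.30 ± 0.11 (SE, limma adjusted p = 0.048) and lost its call under 7 of 12 alternatives. With the second day 0 array left out the difference was 0.14 (adjusted p = 0.32). With the first day 0 array left out it was 0.45 (adjusted p = 0.0013). Ins2 and Insrr were not called (0.11 and -0.0018). Among binding proteins and their partners, Igfbpl1 rose by 0.42 (adjusted p = 0.0068, and 0.065 without day 3 replicate 1), and Igfbp1, Igfbp6, Igfbp7 and Igfals were not called.

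Of 5 genes for proteases that cut binding proteins and for inhibitors of those proteases, 1 inhibitor gene rose and 1 protease gene fell. These shares (20% each) were near those of all genes (20.9% higher and 21.4% lower). Stc2, encoding an inhibitor of the protease PAPP-A, read 7.56 and 8.14 at day 3 and 6.21 and 6.55 at day 0 and rose by 1.47 ± 0.18 (SE, limma adjusted p = 6.7e-05). Its other probe sets rose by 0.85 and 0.54. Htra1, a serine protease gene, fell by 0.65 ± 0.10 (SE, limma adjusted p = 3.0e-04), with 0.73 by its second probe set. Stc1, Pappa and Pappa2 were not called. Igf2bp3, encoding a protein that binds Igf2 mRNA, rose by 0.29 ± 0.06 (SE, limma adjusted p = 0.0019), though 1 of its 6 probe sets gave -0.39 and their mean 0.19, and Igf2bp1 was not called.

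Among 13 adaptors and receptor regulators, 4 rose (30.8%, beside 20.9% of all genes) and 1 fell (7.7%, beside 21.4%). Grb10, encoding an adaptor that inhibits the insulin and IGF-1 receptors, had the largest rise of the whole list. It read 8.83 and 8.52 at day 3 and 7.01 and 7.02 at day 0, a difference of 1.66 ± 0.11 (SE, limma adjusted p = 7.1e-07). Its other 2 probe sets differed by 0.48 and 0.13 at dimmer levels, and the mean of its probe sets gave 0.75. Grb14, a related inhibitor gene, rose by 0.58 (adjusted p = 0.0070), but not without day 3 replicate 1 or by the mean of its probe sets (adjusted p = 0.093 and 0.073). Gab1, encoding a docking protein with a layout like that of the substrates, was bright and fell by 0.89 ± 0.06 (SE, limma adjusted p = 4.4e-07). It read 11.49 and 11.41 at day 3 and 12.36 and 12.31 at day 0, and its other probe sets fell by 0.86 and 1.40.

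Of 8 genes for PI3K and its phosphatases, 2 rose and 2 fell (25.0% each, beside 20.9% and 21.4% of all genes). Inpp5d, encoding the inositol phosphatase SHIP1, which removes a phosphate from the product of PI3K, fell by 1.92 ± 0.07 (SE, limma adjusted p = 1.1e-08). It read 8.40 and 8.46 at day 3 and 10.32 and 10.40 at day 0, and its second probe set fell by 0.998. Of the PI3K subunits, the regulatory gene Pik3r1 rose by 0.68 ± 0.10 (SE), where its other probe sets gave 0.38, 0.49 and 0.02 and the mean of all 4 gave 0.39. The catalytic gene Pik3cb fell by 0.57 ± 0.09 (SE), while Pik3ca, Pik3r2 and Pik3r3 were not called. In the group of AKT and its targets, 4 rose (23.5%), 5 fell (29.4%) and 8 were not called, shares near those of all genes. Pdpk1, encoding the kinase that phosphorylates AKT, fell by 0.71 ± 0.07 (SE, limma adjusted p = 8.0e-06), and Tsc2, an inhibitor of mTOR signalling, fell by 0.49 ± 0.08. Foxo4, a FoxO factor gene, rose by 0.52 ± 0.09 (SE, limma adjusted p = 0.0010), with Foxo1 at 0.44 (called) and Foxo3 at -0.14 (not called).

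**Figure D4:**
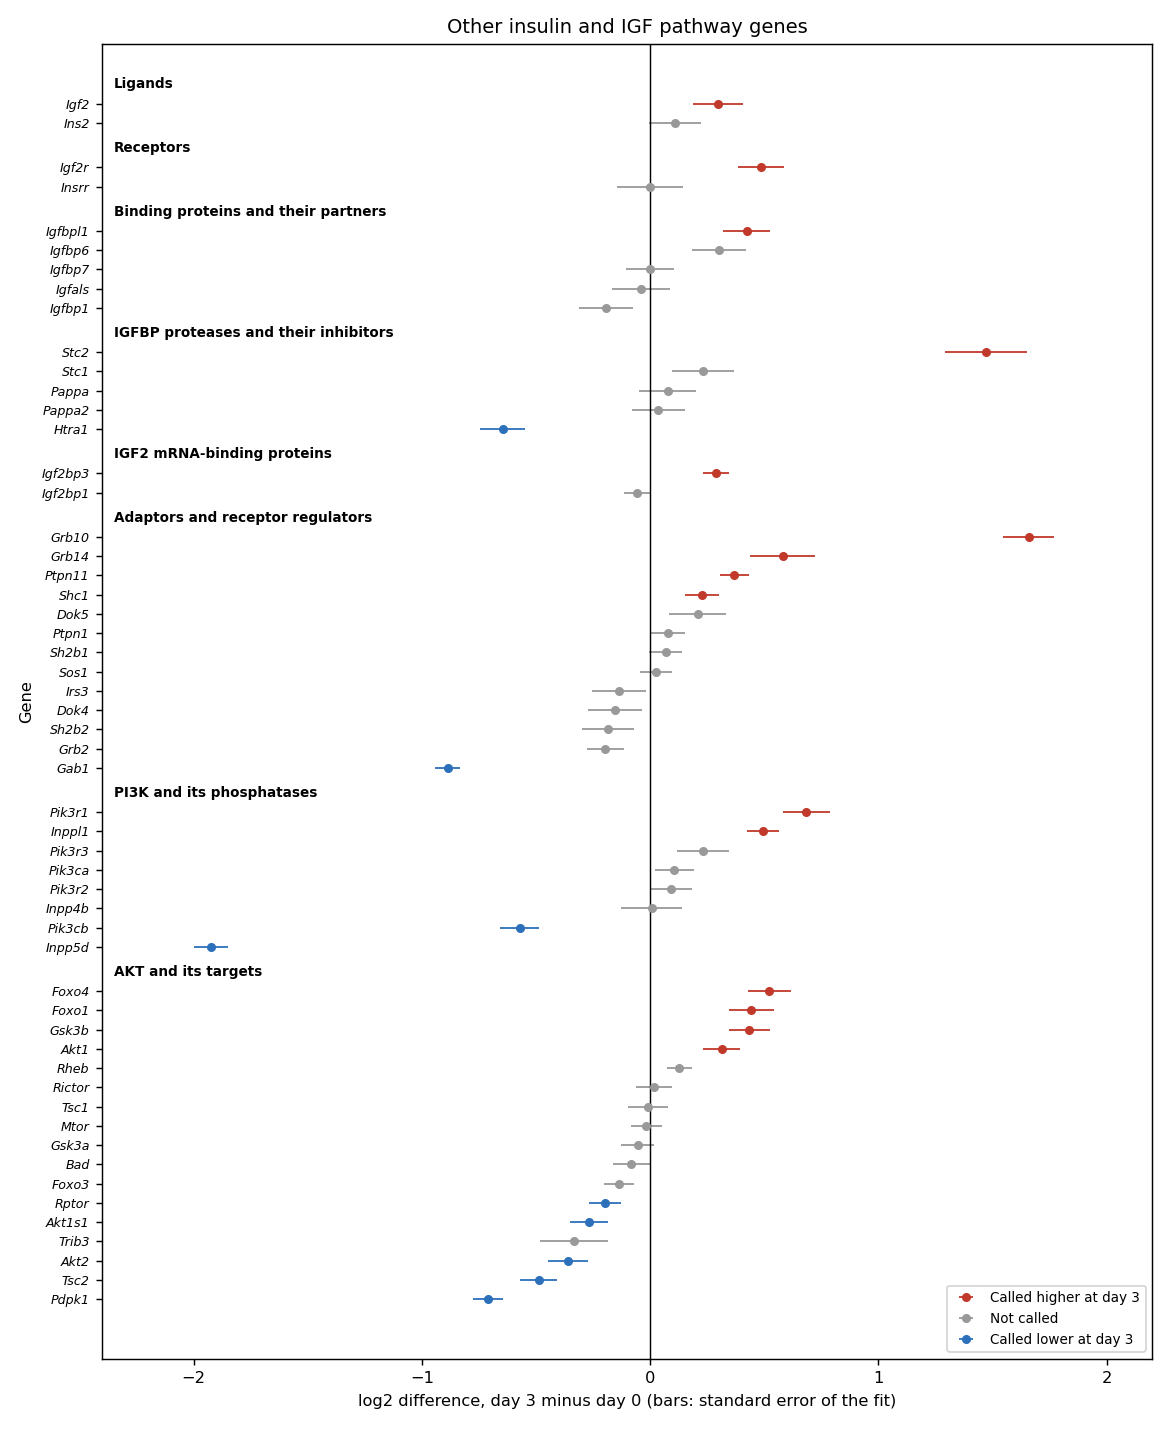
Log2 difference, day 3 minus day 0, of 54 other pathway genes by role, with the standard error of the fit; red genes were called higher at day 3, blue genes lower and grey genes were not called. Grb10 and Stc2 lie farthest to the right, and Inpp5d lies farthest to the left.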

How the data were processed

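Log2 expression values were deposited, 1 per probe set and array. RMA and R 2.13.0 made them, per the submitters' processing notes. RMA evens out the distributions of the arrays after a background correction and compresses differences of dim probe sets. Not given in the sources used here were any further settings. The table had 45101 probe sets, 64 of them controls. Of the rest, 34945 had 1 gene symbol in the platform annotation, giving 18193 genes, and probe sets with several symbols (932) were not used. Day 3 was compared with day 0 with limma 3.58.1 in R 4.3.3 (lmFit, eBayes with an intensity trend, two-sided, no covariate), with Benjamini-Hochberg adjustment over all genes and calls at an adjusted p under 0.05. Adjusted p-values are from this fit. The number of arrays limits the precision. Of the other pathway genes, the text names at most 3 called genes per role with the largest differences. Further genes were named after their values were seen. The members and lists were chosen with earlier results of these data known. Alternatives were a block for the replicate number, each array left out, no intensity trend, robust variance, renewed quantile normalization, median centring of arrays, bright genes only (above the median level), averaged probe sets, only probe sets specific to 1 transcript by their suffix, and a test of every probe set.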

Additional observations from a re-analysis of the deposited data

How the results depend on the processing

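The count of 5 members with a log2 difference of 1 or more was 5 under every alternative run for it, but with the mean of probe sets Igfbp5 (1.37) came in and Insr (0.76) went out. The choice of probe set moved several differences by more than the replicate spread. With the mean, the difference was 3.24 for Irs4, 1.13 for Igf1r and 0.33 for Igfbp4. Without probe sets matching several transcripts, Igf1 gave 0.25, from a probe set below the first quartile on every array. That setting had no value for Igfbp2, Igfbp4 and Igfbp5. Leaving out 1 of 2 arrays cannot move a difference past the replicate spread. It gave 0.06 to 0.19 for Igfbp2, -0.23 to -0.06 for Igfbp5 and 0.10 to 0.21 for Igf1. With every probe set tested, 6409 of 45037 were called higher and 7522 lower, smaller shares than with 1 probe set per gene. With 1 array left out, where the lone array of its day was assumed to vary like the others, 8 to 15 other pathway genes were called higher and 7 to 8 lower, 2908 to 3692 of all genes higher and 2895 to 3748 lower, and marker counts ran from 0 to 1 for visceral endoderm lower, 0 to 3 for neural plate higher, 1 to 2 for neural plate lower and 1 to 2 for mesendoderm higher. Of the neural plate markers, 1 was called higher without the intensity trend and 1 after renewed quantile normalization. Of fibroblast markers, 1 was called lower with averaged probe sets and 1 with transcript-specific probe sets only, where 1 trophectoderm marker was called higher. With genes above the median level, 1 fibroblast marker was called higher and 0 lower, 0 neural plate markers higher and 0 lower, 1 trophectoderm marker lower and 1 mesendoderm marker higher, since few markers were tested. The cause of the other shifts was not tested.

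Same-numbered samples did not deviate together (correlation of -0.017 over genes). This cannot tell whether they shared a culture or a batch, and the labels do not say. With the replicate number as a block, 3789 genes were called higher and 3871 lower, and 15 and 8 of the other pathway genes.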
